A study of Mus musculus with 12 samples.

Results

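The enzymes of serine synthesis and folate one-carbon metabolism were described across 3 Hotair genotypes. The 9 genes were taken by symbol (Phgdh, Psat1, Psph, Shmt1, Shmt2, Mthfd1, Mthfd2, Mthfd1l and Aldh1l2) from a table of 24132 symbols, and all 9 were present and passed the filter on low values. Polyadenylated RNA came from fibroblasts grown out of the tail tips of newborn mice on a C57BL6 background reached by backcrossing. The cells were wild type, heterozygous or knockout for Hotair, a long noncoding RNA of the HoxC cluster, with 2 libraries per genotype and no further allele or treatment named in the labels. Nothing in the labels says that the 2 libraries of a genotype came from separate animals or cultures, so the spread between them may be technical. The 6 ChIP-seq samples of the series are not analysed here. The 9 genes were selected on enzyme class and on differences in RPKM between these genotypes that were already known, so their values are given as a description, with no test.

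Serine is made from 3-phosphoglycerate, an intermediate of glycolysis, in consecutive steps catalysed by Phgdh, Psat1 and Psph. Serine hydroxymethyltransferases then move a carbon unit from serine to tetrahydrofolate and leave glycine. That carbon is carried on folate through a cytosolic and a mitochondrial set of enzymes and feeds purines, thymidylate and methionine. Fibroblasts use serine and glycine also for collagen, phospholipids and glutathione.

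Each library held between 27.9M and 48.1M read equivalents, with the deepest libraries in knockout. Expression is given in RPKM, reads scaled to the length of the gene and the depth of the library, so levels of different genes can be compared per length. Hotair read 0.247 and 0.183 RPKM in wild-type, 0.213 and 0.172 RPKM in heterozygous and 0 in both knockout libraries. In the knockout libraries 3 reads would give 0.0561 and 0.0586 RPKM. The wild-type values rest on at least 8.12 and 5.69 reads and the heterozygous ones on at least 7.88 and 5.97. Heterozygous and wild-type libraries overlapped, so Hotair does not tell these genotypes apart. The fibroblast markers examined (10 of 10, among them Col1a1, Col3a1, Pdgfra and Thy1) were all measured, with a summed level of 5203 to 5671 RPKM per library. In knockout against wild type 7 of these 10 fell and 3 rose by the test used below for neighbouring genes, beside 26.6% and 40.6% of all genes. Thy1 went from 190 ± 3.75 to 94.8 ± 1.07 RPKM (SD, n = 2) and Pdgfra from 2.51 ± 0.03 to 6.38 ± 0.06, with 9.22 ± 0.04 in heterozygous cells. Keratinocyte and endothelial markers summed to less than 1 RPKM in every library. Macrophage and leukocyte markers (16 genes) summed to 9.19 and 10.4 RPKM in wild type, 7.72 and 8.53 in heterozygous and 55.4 and 55.8 in knockout. In 14 of the 16 each knockout library exceeded each wild-type one, beside 49.3% of the 10897 genes that passed the filter on low values. Only 7 of the 16 passed that filter, and some of the 14 rest on few reads. Aif1, for example, had 0 reads in both wild-type libraries and at least 1.87 and 1 in the knockout ones. In heterozygous against wild type, of the 7 that passed the filter on low values, 2 rose and 1 fell, beside 35.5% and 17.1% of all genes. The 1 that fell was Lyz2, from 3.13 ± 0.10 to 1.23 ± 0.14 RPKM. Csf1r, 1 of the 2 that rose, was below 1 RPKM in all wild-type and heterozygous libraries. It passed the filter through its knockout values, as Tyrobp and Fcer1g did. Of that list Cd3e, of T cells, was at 0 in all libraries. Skeletal muscle markers (7 genes) summed to 1.05 and 1.28 RPKM in wild type, 0.751 and 0.911 in heterozygous and 3.26 and 2.87 in knockout, with Myod1 and Myf5 at 0 in all libraries, and Des, the 1 that passed the filter, rose by 0.91 in knockout. Schwann cell markers (7 genes) summed to 26.9 and 27.03 RPKM in wild type, 32.9 and 33.9 in heterozygous and 15.3 and 16.1 in knockout. Proliferation markers (11 genes) summed to 61.1 and 63.0, 76.8 and 77.1, and 93.1 and 93.5 RPKM in the same order. In all 11 each knockout library exceeded each wild-type one, beside 49.3% of all genes that passed the filter, as 10 of the 11 did. The part of these markers in the differences below was not tested.

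The 9 genes did not all share 1 order. In 7 of the 9 genes both wild-type libraries lay above both heterozygous ones and these above both knockout ones, an order found in 12.2% of the 10897 genes measured. The 7 were Phgdh, Psat1, Psph, Shmt2, Mthfd2, Mthfd1l and Aldh1l2. Shmt1 showed the reverse order, as did 22.7% of all genes, and Mthfd1 no complete order. Knockout libraries were lower without overlap than wild type in 8 genes (34.5% of all genes) and higher in 1 (49.3%). Heterozygous libraries were lower than wild type in 7 (25.6% of all genes) and higher in 1 (50.4%). Knockout libraries were lower than heterozygous ones in 7 (38.6%) and higher in 1 (39.2%). The median log2 difference of the 9 genes, on the log2(RPKM + 1) scale used throughout, was -0.48 for knockout against wild type, where the median of all genes was 0.06. For heterozygous against wild type it was -0.22 beside 0.07 for all genes. These comparisons share libraries and were in view when the genes were chosen, so nothing is read from the counts. In whole cultures, fewer cells of a type and less RNA per cell cannot be told apart.

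**Figure D1:**
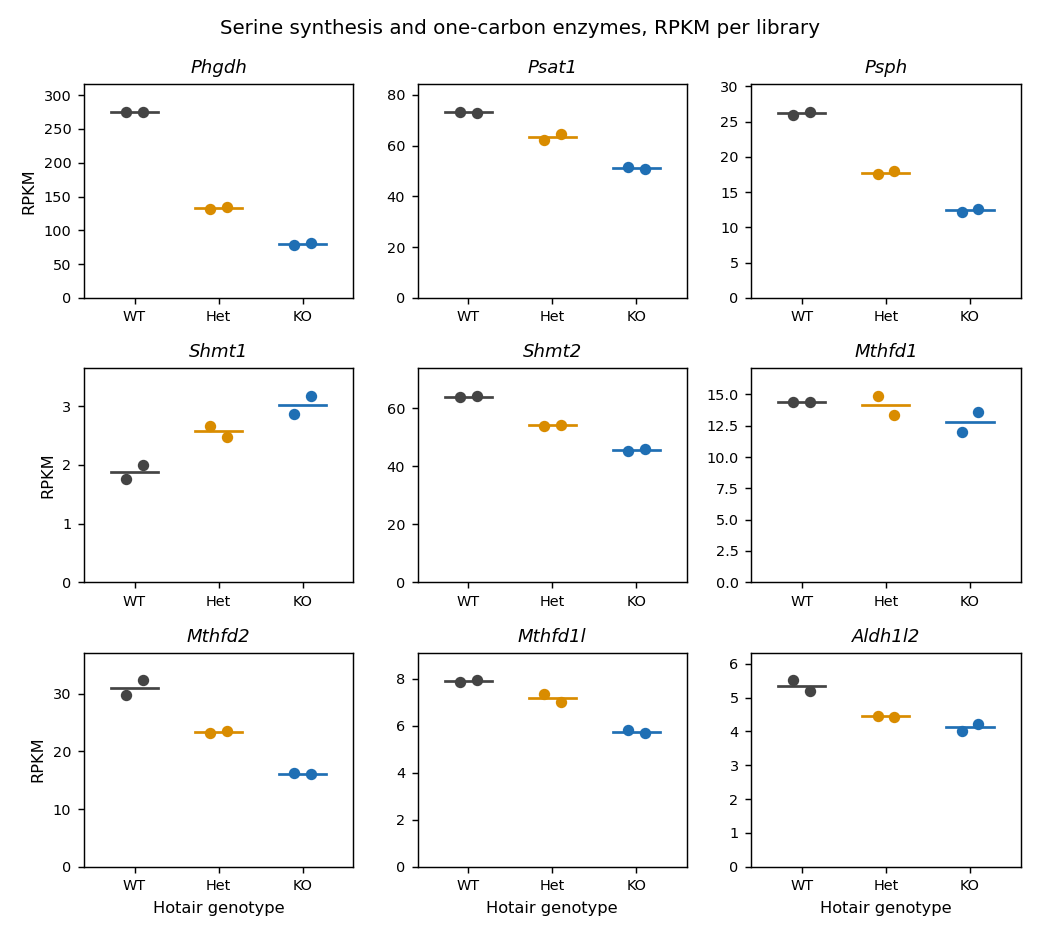
RPKM of the 9 enzyme genes (vertical axis, starting at 0, with its own scale in each panel) by Hotair genotype (WT wild type, Het heterozygous, KO knockout). Points are the 2 libraries of each genotype and lines their means: 7 genes step down from wild type through heterozygous to knockout, Mthfd1 overlaps and Shmt1 steps up from 1.87 to 3.02 RPKM.

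Phgdh, the dehydrogenase that takes 3-phosphoglycerate out of glycolysis, was the most abundant of the 9 in all 6 libraries. Wild-type libraries read 276 and 275 RPKM, heterozygous ones 131 and 134 and knockout ones 78.3 and 81.7. The genotypes were far apart relative to the spread within them (275 ± 0.74, 133 ± 2.21 and 80 ± 2.43 RPKM, SD, n = 2 each). The heterozygous mean was 48.2% and the knockout mean 29.1% of wild type. The log2 difference was -1.77 ± 0.02 (SE) for knockout against wild type, -1.05 ± 0.02 for heterozygous against wild type and -0.72 ± 0.02 for knockout against heterozygous. Of all genes measured, 149 lay above Phgdh in wild type, 313 in heterozygous and 521 in knockout cells.

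A second row moved with it. Gm8096, annotated as a transcribed pseudogene on chromosome 8 (RefSeq, GRCm38.p6), stood at 66.4 ± 0.38, 32.8 ± 0.67 and 19.2 ± 0.18 RPKM (SD, n = 2) in wild-type, heterozygous and knockout cells. Its level was a nearly fixed part of that of Phgdh, with ratios from 0.236 to 0.254 over the 6 libraries. Whether both rows take the same reads was not tested. When the reads of both rows were added together, the knockout level was 29.0% of wild type, against 29.1% for Phgdh alone, a sum made after the values had been seen. With a nearly fixed ratio between the rows, the 2 percentages had to be close. They say nothing on whether reads are shared.

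Psat1, the aminotransferase of the second step, differed less. Its RPKM was 73.4 and 72.9 in wild type, 62.3 and 64.5 in heterozygous and 51.6 and 50.6 in knockout cells, without overlap between genotypes. Its heterozygous mean was 86.6% and its knockout mean 69.9% of wild type (log2 difference -0.51 ± 0.03, SE, for knockout). Psph, the phosphatase that releases serine, read 25.9 and 26.4, 17.6 and 17.9, and 12.1 and 12.6 RPKM in the same order. That is 67.9% of wild type in heterozygous and 47.3% in knockout cells, with log2 differences of -0.53 ± 0.03 and -1.02 ± 0.03. The 3 consecutive enzymes therefore kept their order of abundance but not their proportions. The ratio of Phgdh to Psat1 was 3.76 ± 0.01 in wild type, 2.09 ± 0.02 in heterozygous and 1.57 ± 0.07 in knockout (SD, n = 2), and that of Psat1 to Psph was 2.80 ± 0.05, 3.57 ± 0.04 and 4.13 ± 0.17. Together the 3 genes summed to 375 ± 0.75, 214 ± 3.97 and 144 ± 2.06 RPKM. Phgdh made up 55.1% of the summed level of all 9 genes in wild type, 41.5% in heterozygous and 34.6% in knockout.

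Promoter sequence was compared because 7 of the 9 genes were ordered downward from wild type to knockout, while Shmt1 was ordered upward. RefSeq promoters (250 bases before to 50 after a start, GRCm38.p6) were found for 8 of the 9 genes, with Psat1 having 2, and Aldh1l2 had no entry. Neither the core of the C/EBP-ATF response element (TGATGNAA), bound by Atf4, nor the E-box CACGTG, bound by Myc, occurred on either strand in any of the 9 windows. Of the 7941 measured genes with an entry, 2.71% hold the first and 12.3% the second, beside 3.97% and 7.15% of all 32851 promoters listed. The CCAAT box, bound by the factor NF-Y and searched as CCAAT on both strands after the sequences had been read, occurred in 6 of the 8 genes and in 42.7% of the same 7941 genes. By window it occurred in 6 of 9 and was absent from those of Shmt2 and Mthfd1l and from the other Psat1 window, which is not shown. The 5 windows below show the 3 serine synthesis genes, Mthfd2 and, for contrast, Shmt1. They are given 5′ to 3′ on the strand of the gene, with CCAAT or its complement ATTGG in capitals. The windows are chr3:98339920-98340219 (minus strand) for Phgdh, chr19:15925010-15925309 (minus) for Psat1, chr5:129787204-129787503 (minus) for Psph, chr6:83317555-83317854 (minus) for Mthfd2 and chr11:60811216-60811515 (minus) for Shmt1.
Phgdh: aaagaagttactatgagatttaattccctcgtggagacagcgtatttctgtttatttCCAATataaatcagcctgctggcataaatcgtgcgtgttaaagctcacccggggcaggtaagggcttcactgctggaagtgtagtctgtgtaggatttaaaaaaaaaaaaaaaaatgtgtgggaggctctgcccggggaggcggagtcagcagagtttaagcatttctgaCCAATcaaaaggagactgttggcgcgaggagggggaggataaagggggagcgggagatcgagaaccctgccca
Psat1: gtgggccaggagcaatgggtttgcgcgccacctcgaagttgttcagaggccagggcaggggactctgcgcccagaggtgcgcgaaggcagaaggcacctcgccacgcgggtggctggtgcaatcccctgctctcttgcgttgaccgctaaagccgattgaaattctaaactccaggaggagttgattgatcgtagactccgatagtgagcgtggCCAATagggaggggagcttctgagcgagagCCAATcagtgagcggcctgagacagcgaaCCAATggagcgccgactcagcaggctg
Psph: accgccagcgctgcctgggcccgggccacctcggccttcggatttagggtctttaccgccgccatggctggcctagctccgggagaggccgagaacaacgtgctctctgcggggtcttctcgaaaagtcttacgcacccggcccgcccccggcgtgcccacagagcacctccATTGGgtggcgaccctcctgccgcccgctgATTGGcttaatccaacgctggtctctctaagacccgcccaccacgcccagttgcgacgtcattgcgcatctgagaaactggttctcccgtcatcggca
Mthfd2: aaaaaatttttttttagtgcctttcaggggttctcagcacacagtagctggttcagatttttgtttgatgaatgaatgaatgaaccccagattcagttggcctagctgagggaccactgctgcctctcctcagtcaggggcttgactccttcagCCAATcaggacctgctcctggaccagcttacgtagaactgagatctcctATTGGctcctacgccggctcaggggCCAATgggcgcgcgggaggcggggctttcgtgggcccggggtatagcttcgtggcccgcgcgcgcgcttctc
Shmt1: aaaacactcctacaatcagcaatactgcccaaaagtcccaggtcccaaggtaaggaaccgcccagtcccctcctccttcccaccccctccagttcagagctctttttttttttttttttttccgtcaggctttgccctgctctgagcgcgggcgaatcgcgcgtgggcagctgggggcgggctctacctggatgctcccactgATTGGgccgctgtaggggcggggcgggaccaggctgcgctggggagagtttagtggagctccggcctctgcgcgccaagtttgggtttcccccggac

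Psat1 and Mthfd2 each held 3 copies, Phgdh and Psph 2 and Shmt1 1, so the element was present both in genes that were lower and in the 1 that was higher in knockout. The nearest copies began 23 bases before the start in Phgdh, 48 in Psph and 47 in Shmt1. A match describes the letters in these windows only.

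The pair of serine hydroxymethyltransferases moved in opposite directions. Shmt2, the mitochondrial enzyme, had an RPKM of 63.8 and 64.2 in wild type, 54.01 and 54.3 in heterozygous and 45.4 and 46.04 in knockout cells. Its genotypes did not overlap, and its knockout mean was 71.5% of wild type (log2 difference -0.48 ± 0.02, SE). Shmt1, the cytosolic enzyme, was the least abundant of the 9, with an RPKM of 1.75 and 1.99 in wild type, 2.67 and 2.48 in heterozygous and 2.86 and 3.17 in knockout. All 4 libraries with a disrupted allele lay above both wild-type ones, and the knockout mean was 1.61 times that of wild type (log2 difference 0.48 ± 0.07). Shmt1 rests on fewer reads than the other genes, at least 108 and 115.5 in the wild-type libraries. Shmt2 exceeded Shmt1 by 34.3 ± 2.93 times in wild type, 21.1 ± 1.20 in heterozygous and 15.2 ± 0.97 in knockout (SD, n = 2), and these ratios did not overlap between genotypes.

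**Figure D2:**
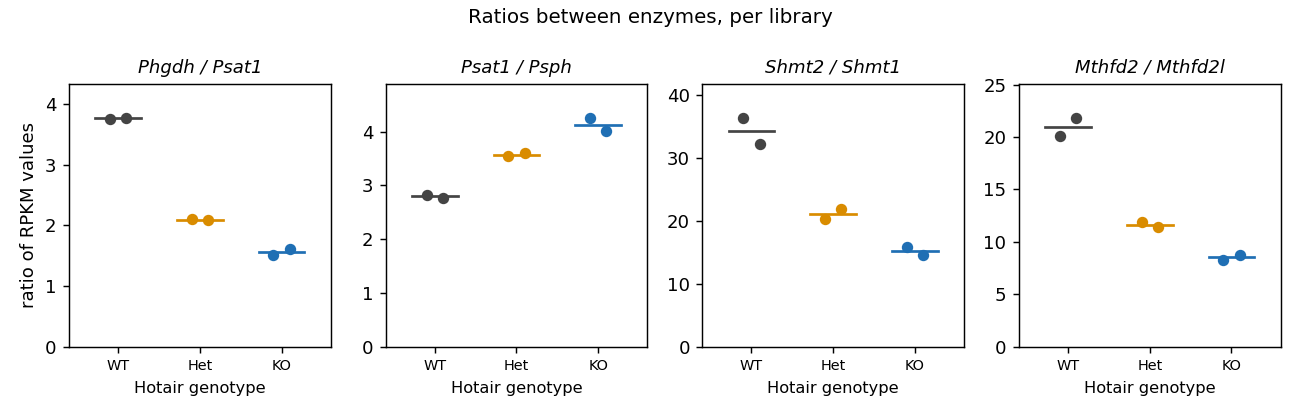
Ratios of RPKM values between enzymes (vertical axis, starting at 0) in each library, by Hotair genotype (WT wild type, Het heterozygous, KO knockout); points are libraries and lines means. Phgdh to Psat1 (3.76 to 1.57), Shmt2 to Shmt1 (34.3 to 15.2) and Mthfd2 to Mthfd2l (20.9 to 8.52) decline from wild type to knockout, and Psat1 to Psph climbs from 2.80 to 4.13.

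In mitochondria, Mthfd2 oxidises methylene-tetrahydrofolate, Mthfd1l releases formate, and Aldh1l2 oxidises formyl-tetrahydrofolate to carbon dioxide. Mthfd2 was the lowest of these relative to wild type, with an RPKM of 29.8 and 32.3 in wild type, 23.3 and 23.5 in heterozygous and 16.3 and 16.01 in knockout cells. Its knockout mean was 52.1% of wild type and its log2 difference -0.90 ± 0.04 (SE). Mthfd1l stood at 7.85 and 7.93, 7.36 and 7.02, and 5.80 and 5.71 RPKM, with a knockout mean at 72.9% of wild type (-0.40 ± 0.04). Here the heterozygous libraries lay nearer to wild type (91.2%) than to knockout. Aldh1l2 stood at 5.51 and 5.19, 4.45 and 4.44, and 4.02 and 4.23 RPKM, with a knockout mean at 77.2% of wild type (-0.31 ± 0.05). Its heterozygous libraries lay nearer to knockout, and the log2 difference of -0.09 ± 0.05 between these genotypes was the smallest of the 7 ordered genes.

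Mthfd1, the cytosolic trifunctional enzyme that interconverts the carbon-carrying folates, differed little. Its RPKM was 14.4 in both wild-type libraries, 14.9 and 13.4 in heterozygous and 12.03 and 13.6 in knockout. The heterozygous libraries overlapped both other genotypes. The log2 difference was -0.16 ± 0.07 (SE) for knockout and -0.03 ± 0.07 for heterozygous against wild type, and the latter turned to 0.043 without the second heterozygous library. Leaving out 1 knockout library moved the knockout difference to -0.08 (the first left out) or -0.24 (the second). Summed by compartment, the 4 mitochondrial genes went from 108 ± 1.92 RPKM in wild type to 89.2 ± 0.17 in heterozygous and 71.8 ± 0.31 in knockout. The 2 cytosolic genes summed to 16.3 ± 0.17, 16.7 ± 1.20 and 15.8 ± 1.34 RPKM, without separation of the genotypes. The mitochondrial to cytosolic ratio was 6.65 ± 0.05, 5.36 ± 0.40 and 4.55 ± 0.36.

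**Figure D3:**
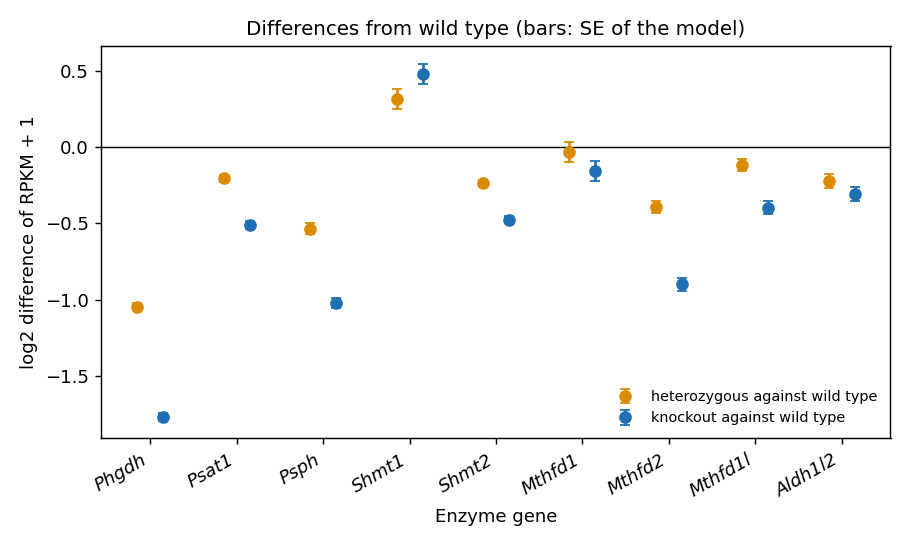
Log2 differences of RPKM + 1 from wild type (vertical axis) for the 9 enzyme genes (horizontal axis) in heterozygous and knockout cells; points are model estimates and bars their SE. Phgdh lies lowest (-1.77 in knockout, -1.05 in heterozygous), Psph and Mthfd2 follow, and Shmt1 is the 1 gene above 0.

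Within a genotype the genes kept nearly the same rank. In wild type the order was Phgdh, Psat1, Shmt2, Mthfd2, Psph, Mthfd1, Mthfd1l, Aldh1l2 and Shmt1, from 275 to 1.87 RPKM, with no overlap between neighbours. In knockout Mthfd1 (12.8 ± 1.12 RPKM) and Psph (12.4 ± 0.35) overlapped, and the order of the others was the same. Relative to all genes measured, Phgdh, Psat1 and Shmt2 lay above at least 91.1% of genes in every genotype. Shmt1 lay above 18.8% of genes in wild type and 25.3% in knockout.

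Genes with the nearest pattern were found by the distance between centred log2 values over the 6 libraries, among 6394 genes with a mean of at least 5 RPKM. Nearest to Phgdh were Gm8096 (distance 0.08), the transcribed pseudogenes Vmn2r-ps54 (0.24) and Gm6756 (0.25), Ankrd1 (0.27), which encodes an ankyrin repeat protein, and the histone gene Hist1h4m (0.30). Psat1 lay nearest to Ddb1 (0.04), a subunit of a ubiquitin ligase, Tgfb1 (0.04), the growth factor, Hist1h2bc, Nt5dc3 and Tmem164. Psph lay nearest to the protease gene Prss23 (0.10), Thy1 (0.12), Mid1ip1, Spry4 and Hist1h1c. For Mthfd2 they were Mid1ip1 (0.04), Specc1, Adra2a, Slc20a2 and Hist1h1c, and for Shmt2 the deubiquitinase gene Usp5 (0.03), Zzef1, Tcn2, Pgd and Epn2. None of the 9 enzymes was among the genes nearest to these 5, but Shmt1 and Aldh1l2 had means under 5 RPKM and could not appear. Histone and pseudogene rows can share reads with copies, which was not tested.

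Genes next to the pathway moved in both directions. Of 74 such genes in 8 lists, 59 passed the filter of 1 RPKM in at least 2 libraries. In knockout against wild type 28 fell, 15 rose and 16 did not pass the test (limma, Benjamini-Hochberg adjustment over all genes). Of all genes, 26.6% fell and 40.6% rose. The lists were chosen with earlier results of these data known, so nothing is read from their counts beside those of all genes. After median scaling 9 of the 59 rose and 31 fell. The median log2 difference of the neighbours was -0.06, against 0.06 for all genes. In heterozygous against wild type 9 fell and 20 rose (17.1% and 35.5% of all genes), with 16 and 9 after median scaling. In knockout against heterozygous 30 fell and 6 rose (25.4% and 26.4% of all genes), and 3 and 2 rose without the first and the second knockout library. Among all called genes, higher calls made up 60.4% in knockout against wild type, 46.7% after quantile normalization and 47.2% after median scaling. For heterozygous against wild type the shares were 67.5%, 51.1% and 45.5%.

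**Figure D4:**
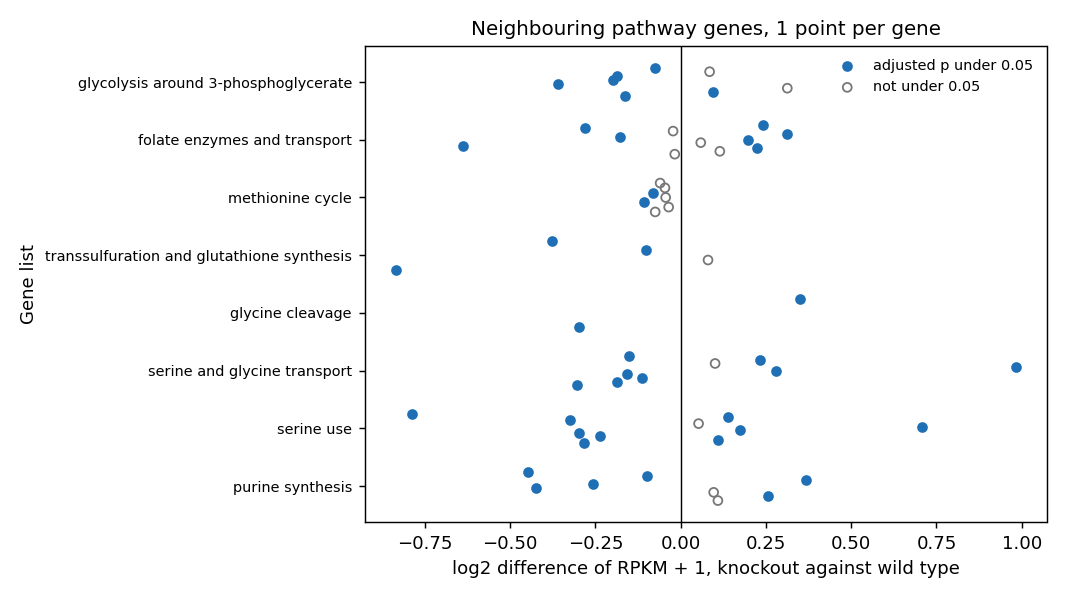
Log2 differences of RPKM + 1 between knockout and wild type (horizontal axis) for the genes of 8 neighbouring lists (vertical axis), 1 point per gene that passed the filter. Filled points passed limma at an adjusted p under 0.05 (28 lower, 15 higher) and open points did not (16); the lists hold genes on both sides of 0 except the methionine cycle, where all 7 lie below 0.

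Around the branch point, 5 of 8 glycolysis genes fell and 1 rose. For this and the lists below, 26.6% of all genes fell and 40.6% rose, and nothing is read from the counts. Pgk1, which makes 3-phosphoglycerate, went from 280 ± 1.68 to 218 ± 2.31 RPKM (SD, n = 2; log2 difference -0.36 ± 0.02, limma adjusted p = 1.68e-06), and the enolase gene Eno1 from 1060 ± 4.002 to 930.5 ± 0.67. Tpi1 rose by 0.09 ± 0.02 (adjusted p = 0.00378), a call lost after median scaling (adjusted p = 0.486). Gapdh overlapped between genotypes and was not called, with 309 ± 93.6 RPKM in wild-type and 383 ± 105 RPKM in knockout cells. Its first library was the higher in every genotype: 375 and 243 RPKM in wild type, 350.5 and 263 in heterozygous and 457 and 308.5 in knockout. Knockout exceeded wild type under each replicate number. What these numbers mark is not stated in the labels, and the cause was not tested. Of 11 measured folate genes 4 rose and 3 fell. Aldh1l1, the cytosolic counterpart of Aldh1l2, went from 1.93 ± 0.02 RPKM in wild type to 0.803 ± 0.03 in heterozygous and 0.889 ± 0.18 in knockout (-0.64 ± 0.07, limma adjusted p = 0.000176 for knockout). It passed the filter through its wild-type values: of the other libraries only the second knockout one, at 1.02 RPKM, reached 1 RPKM. The folate carrier gene Slc46a1 fell by 0.28 ± 0.05. Ggh, which trims folate tails, rose by 0.31 ± 0.05, and the mitochondrial folate carrier gene Slc25a32 by 0.24 ± 0.05, the latter not called after quantile normalization. Mthfd2l, the counterpart of Mthfd2, rose by 0.22 ± 0.05, so that Mthfd2 exceeded it 20.9 ± 1.24 times in wild type and 8.52 ± 0.34 times in knockout.

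Among genes that use serine, 5 of 10 measured fell and 4 rose, beside 26.6% and 40.6% of all genes. Sars, which charges tRNA with serine, went from 69.6 ± 2.71 RPKM in wild-type to 54.4 ± 1.12 in heterozygous and 39.9 ± 0.01 in knockout cells (-0.79 ± 0.03 for knockout, adjusted p = 1.30e-06). Sptlc1, a subunit of the first enzyme of sphingolipid synthesis, fell by 0.28 ± 0.04. Serinc2 rose by 0.71 ± 0.04 and Serinc1 by 0.17 ± 0.03, the latter not called after median scaling. Of 9 transport genes 5 fell and 3 rose: Slc1a4, a serine and neutral amino acid carrier, fell by 0.30 ± 0.04 and the mitochondrial sideroflexin gene Sfxn3 by 0.15 ± 0.02. The amino acid transporter gene Slc38a2 rose by 0.28 ± 0.03. Slc38a4 (0.144 ± 0.04 RPKM in wild-type and 1.26 ± 0.13 RPKM in knockout cells) rose by 0.98 ± 0.08 and passed the filter through its knockout values.

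Downstream of the folate and serine pools, 3 of 4 measured transsulfuration and glutathione genes fell and 0 rose. Of all genes, 26.6% fell and 40.6% rose. Cth, which makes cysteine from cystathionine, went from 4.98 ± 0.05 to 3.43 ± 0.39 and 2.35 ± 0.07 RPKM (-0.84 ± 0.06 for knockout, adjusted p = 2.50e-05), and glutathione synthetase, Gss, fell by 0.38 ± 0.03. Purine synthesis split into 4 lower and 2 higher of 8. Atic (-0.45 ± 0.03) and Gart (-0.42 ± 0.04), the enzymes that take up formyl groups from folate, fell, while Paics rose by 0.37 ± 0.03 and Prps2 by 0.26 ± 0.07 (a call lost after quantile normalization, median scaling and without the second knockout library). Of 2 measured glycine cleavage genes Gcsh fell by 0.30 ± 0.05 and Dld, which other dehydrogenase complexes share, rose by 0.35 ± 0.04. Of 7 measured methionine cycle genes 2 fell, Mat2a by 0.11 ± 0.03 and Ahcy by 0.08 ± 0.03, and 0 rose. The call of Mat2a was lost in 4 of 14 alternative fits and that of Ahcy in 5 of 14, and Ahcy turned to 0.015 after quantile normalization.

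Genes linked to Atf4, a transcription factor of the amino acid response known to act on Phgdh, Psat1, Shmt2 and Mthfd2, fell in 18 of 24 cases and rose in 4 in knockout against wild type, where 26.6% of all genes fell and 40.6% rose. Those with the smallest p were Slc7a5 (-0.95 ± 0.03), Trib3 (-0.97 ± 0.04), Asns (-0.81 ± 0.03), Aldh18a1 (-0.61 ± 0.03), Pck2 (-0.88 ± 0.04) and, upward, Cebpb (1.13 ± 0.04), while the RNA of Atf4 itself went from 77.4 ± 2.20 to 87.1 ± 0.01 RPKM. In heterozygous cells 14 of the 24 fell and 5 rose, beside 17.1% and 35.5% of all genes. This list was chosen with earlier results of these data known, so nothing is read from its counts beside those of all genes. Whether Atf4 takes part in the differences of the enzymes was not tested.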

How the data were processed

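RNA-seq values of 6 libraries (2 per genotype) were used. Libraries were made by a dUTP protocol after poly(A) selection, per the labels' protocols, and TopHat and mm9 are named in the submitters' processing notes. The deposited table gives 1 value per symbol, identified as RPKM from the deposited numbers: low values were whole multiples of 1 step per library and gene length. Steps and lengths (18884 of 18888 genes above 0, tolerance 0.002 bases, reads of 74 bases) gave the depth; recovered lengths are the shortest possible, so read numbers are lower bounds. Not given in the sources used here are the counter, its strand setting and the annotation.

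Values were taken as log2(RPKM + 1), which understates changes of low genes, where at least 2 libraries reached 1 RPKM (10897 genes). limma 3.58.1 (R 4.3.3) estimated a mean per genotype, with an intensity trend and 3 residual degrees of freedom. Tests were two-sided at 0.05 after Benjamini-Hochberg adjustment over all genes. The fit was also run on simulated reads in which few genes were changed. In these data most genes were called, so that run does not bear on the calls given here. p-values measure only the spread between these libraries. Errors are SD between 2 libraries or SE of the model. The 9 genes and all lists were chosen with earlier results of these data known. Neighbouring genes named were the 2 with the smallest p in each direction per list among called genes, and 6 of the Atf4 list. Mthfd2l, Gapdh, Atf4 and Gm8096 were named after their values were seen. Alternatives were other pseudocounts (0.1 and 5), filters and scalings, no trend, a replicate block and leaving out each library.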

Additional observations from a re-analysis of the deposited data

How the results depend on the processing

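The counts of enzyme genes lower without overlap stayed between 7 and 8 in all 3 comparisons under quantile normalization, median scaling and without any 1 library. Leaving out a library can only keep or raise such a count, so nothing is read from that part. The log2 differences of the 9 genes kept their sign in all alternatives except that of Mthfd1 for heterozygous against wild type (-0.10 without the first and 0.043 without the second heterozygous library). In knockout against wild type that of Phgdh ranged from -1.85 to -1.70 and that of Shmt1 from 0.22 to 0.66. With a filter at 5 RPKM, which tests fewer genes, 4754 genes were called in knockout against wild type (7324 as reported) and 8 neighbouring genes rose (15 as reported), and 9 rose after median scaling. In heterozygous against wild type 12 neighbours rose after quantile normalization and 9 after median scaling (20 as reported), where 16 fell (9 as reported). Leaving out 1 library at a time gave 13 to 18 higher neighbours in that comparison, lowest without the second wild-type library, and 2 to 6 (6 as reported) in knockout against heterozygous, lowest without the second knockout library. A lone library was then assumed to vary like the others. Among named neighbours, Ahcy turned to 0.015 in knockout against wild type and Eno1 to 0.038 in heterozygous against wild type after quantile normalization. Of the 1278 alternative values of named neighbours 54 lost their call with the sign kept, 7 gained one and these 2 changed sign, of which Ahcy was no longer called; apart from the effect of scaling and of fewer libraries or genes by construction, the cause was not tested.

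With the replicate number as a block, 7253 genes were called in knockout against wild type (7324 without), 5564 in heterozygous against wild type and 5448 in knockout against heterozygous. The labels do not say that a number marks a shared animal or day, so the numbers were not taken as pairs. Differences between first and second libraries were correlated over 6394 genes. The values were -0.11 (wild type with heterozygous), -0.08 (wild type with knockout) and 0.13 (heterozygous with knockout). Correlations over all these genes cannot settle whether a number marks something shared. Gapdh, for example, was higher in the first library of every genotype.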
